A study of Mus musculus with 6 samples.

Results

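The genes described here encode the receptors through which a cell reads its sterols and fatty acids, with the PGC-1 coactivators that work beside them. The members were chosen by name and not by measured values, as 10 genes: Nr1h2, Nr1h3, Rxra, Rxrb, Ppara, Ppard, Pparg, Ppargc1a, Ppargc1b and Esrra. Of these, 9 were among the 14774 genes of the count table, and Ppargc1a was not analysed here. RNA was compared between WT MA-10 cells, a Leydig tumor line of the mouse (3 libraries), and STARKO1 cells (3 libraries), a STAR KO line expanded from a single MA-10 colony after CRISPR/Cas9 targeting of the second exon of Star. Both lines were untreated. STARKO1 is 1 clone, so the loss of STAR and the history of that clone cannot be told apart. Nothing states that the libraries came from separate cultures, so the p-values measure the spread between libraries, which may be technical.

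Liver X receptors (LXRs) are nuclear receptors activated by oxysterols, the oxidised forms of cholesterol, and they switch on genes for cholesterol efflux and fatty acid synthesis. Peroxisome proliferator-activated receptors (PPARs) are activated by fatty acids and their derivatives, and they control fatty acid oxidation and storage. Both kinds bind DNA as partners of a retinoid X receptor (RXR). ERRα, encoded by Esrra, is an orphan receptor that acts with PGC-1 coactivators on mitochondrial genes. In a Leydig cell, cholesterol is also the substrate of steroid synthesis.

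The sequences upstream of Nr1h3 and Nr1h2 are shown because these were the members whose scaled levels did not overlap between the cell lines. Such a lack of overlap was found for 42.5% of all genes tested. The sequence upstream of Esrra is shown beside those of Nr1h3 and Nr1h2 because Esrra had the widest relative spread among MA-10 libraries of the members tested. Each is the 250 bases before a start site annotated by RefSeq on GRCm38.p6, read 5′ to 3′ on the strand of the gene. Capitals mark CCGGAA, the core of a site for ETS factors, in the LXR sequences, and GGGCGG, the GC box, in that of Esrra, on either strand.
Nr1h3, minus strand, chr2:91195117-91195366: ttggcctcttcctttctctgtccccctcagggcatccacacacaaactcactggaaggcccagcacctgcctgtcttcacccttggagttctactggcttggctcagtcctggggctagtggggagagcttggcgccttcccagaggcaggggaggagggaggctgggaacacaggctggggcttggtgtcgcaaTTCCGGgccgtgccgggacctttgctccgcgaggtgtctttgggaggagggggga
Nr1h2, minus strand, chr7:44553966-44554215: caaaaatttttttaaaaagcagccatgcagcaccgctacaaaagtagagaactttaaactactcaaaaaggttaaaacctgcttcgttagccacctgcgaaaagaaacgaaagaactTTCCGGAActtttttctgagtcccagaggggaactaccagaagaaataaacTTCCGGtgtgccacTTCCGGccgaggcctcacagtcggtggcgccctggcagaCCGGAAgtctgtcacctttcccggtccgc
Esrra, minus strand, chr19:6921809-6922058: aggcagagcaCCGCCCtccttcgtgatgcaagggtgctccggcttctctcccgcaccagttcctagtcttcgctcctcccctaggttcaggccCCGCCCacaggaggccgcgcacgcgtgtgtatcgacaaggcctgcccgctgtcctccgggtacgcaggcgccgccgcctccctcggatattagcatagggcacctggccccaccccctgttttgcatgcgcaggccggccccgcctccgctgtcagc

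The LXR pair differed in these windows. The Nr1h2 window held 5 matches to CCGGAA, of which 2 overlap each other, and the Nr1h3 window held 1. At least 1 match occurred in 12.03% of 32851 windows of this length, and 5 or more in 7 of them. The GC content was 48.4% for Nr1h2, 63.2% for Nr1h3 and 68.4% for Esrra, against a median of 52.4% over all windows. The annotated windows of 8 members, all measured members but Ppargc1b, were searched, and 6 members had a window with a GC box. Nr1h3 and Nr1h2 had none. The GC box was found in 32.7% of all windows. Shares here are per window, and some members had more than 1 window, so they are not like for like. AGGTCA, the hexamer recognised by many nuclear receptors, was found upstream of Rxra and Pparg and in 14.02% of all windows. TGACG, the core of a cAMP response element, was found upstream of Ppara and Rxrb and in 17.8% of all windows. The start site used for Nr1h3 lies inside the longer gene that the count table gives, and CCGGAA was chosen after the sequences had been read.

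The libraries held between 14114349 and 19530054 counts. Star, the targeted gene, had 697 to 1261 counts in MA-10 libraries and 36 to 48 in STARKO1 libraries. MA-10 replicate 1 stood apart from the other MA-10 libraries. Its Pearson's r of log2 CPM (a gene's counts over a TMM-scaled library size) across genes, which are not independent replicates, was 0.897 and 0.931 with MA-10 replicates 2 and 3 but 0.956 to 0.959 with STARKO1 libraries. Ribosomal protein genes took 4.61% of its counts, 8.63% and 7.79% of those of MA-10 replicates 2 and 3, and 4.23% to 4.41% in STARKO1. For the 7SL RNA these shares were 1.81%, then 14.4% and 6.63%, then 1.82% to 2.37%. The part of these shares in the results was not tested. The estimates of the tested members and of some list genes, and the counts of each list, are given with and without this library. Of 13 Leydig markers, 12 reached 1 CPM, with sums of 2256 to 2950 CPM in MA-10 and 1908 to 1999 CPM in STARKO1. By the edgeR test described below, 2 of them passed, Star and Hsd3b1, both lower in STARKO1, against 9.04% of all genes tested. Hsd3b1 had a mean of 29.8 CPM in MA-10 and 5.19 in STARKO1. Cyp17a1, which did not pass, had means of 3.58 and 8.57 CPM. Of the markers of other cells, 3 of 9 for macrophages were in the table (sums of 5.38 to 10.1 CPM in MA-10 and 6.66 to 8.69 in STARKO1), 3 of 8 for Sertoli cells (337 to 529 and 574 to 597), and 1 of 8 for germ cells (2.20 to 3.55 and 1.91 to 2.83). Most of the Sertoli sum came from Rhox5, at 314 to 504 CPM in MA-10 and 547 to 568 in STARKO1. There were 2 of 6 for endothelium (26.4 to 41.5 and 118 to 124, of which only Cdh5 reached 1 CPM) and 2 of 8 for fibroblasts and peritubular cells (3.12 to 7.66 and 0.337 to 0.430, of which only Pdgfra did). The defining markers Adgre1, Ptprc, Amh, Sox9, Dazl, Vwf and Col1a1 had no row.

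Of the 9 members, 8 had enough counts to be tested, and 1 of them, Nr1h3, passed an adjusted p of 0.05 by the quasi-likelihood test of edgeR (Benjamini-Hochberg adjustment). It was higher in STARKO1. Over all 11939 genes tested, 9.04% passed, 4.3% higher and 4.74% lower. At an unadjusted p under 0.05 there were 2 members, Nr1h3 and Nr1h2, against 37.6% of all genes tested. DESeq2 called the same 2 members, against 28.5% of all genes, and a fit with the replicate number as a block called none, against 1.96%. In TMM-scaled CPM, the libraries of the cell lines did not overlap for Nr1h3 and Nr1h2, against 42.5% of all genes tested. These shares are near those of all genes. The log2 fold change of STARKO1 over MA-10 (log2FC) had a median of 0.16 over the 8 members and -0.05 over all genes. In what follows, values of a cell line stand in the order of replicates 1, 2 and 3, and adjusted p-values are edgeR's unless DESeq2 is named.

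Nr1h3 encodes LXRα (chromosome 2 of GRCm38, 91184061 to 91202835, minus strand). MA-10 cells had 128, 83 and 79 counts, and STARKO1 cells had 308, 205 and 237. Scaled, these were 7.33, 7.20 and 6.96 CPM against 13.2, 12.1 and 13.3 CPM. Every STARKO1 library was above every MA-10 library, and MA-10 replicate 1 lay with the other MA-10 libraries. The mean rose from 7.16 ± 0.189 to 12.9 ± 0.693 CPM (SD, n = 3 each), which is 1.80-fold, with a log2FC of 0.85 ± 0.155 (SE) and an adjusted p of 0.0262 in edgeR. Across the 6 fits that each left out 1 library, the log2FC of Nr1h3 stayed between 0.82 and 0.95. The call held without MA-10 replicate 1 (adjusted p = 0.000519) and without MA-10 replicate 2 (0.0481). It was lost without MA-10 replicate 3 (0.0940) and without STARKO1 replicate 1, 2 or 3 (0.136, 0.132 and 0.161).

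Nr1h2 encodes LXRβ, the more widely expressed LXR (chromosome 7, 44549616 to 44553952, minus strand). Its level was 68.1, 68.8 and 65.1 CPM in MA-10 cells against 49.8, 49.5 and 49.0 CPM in STARKO1 cells. With TMM scaling, the STARKO1 libraries were all below the MA-10 libraries, with little spread among themselves. Nr1h2 averaged 67.3 ± 1.97 and 49.4 ± 0.362 CPM (SD, n = 3 each), and its log2FC of -0.45 ± 0.134 (SE) did not pass the threshold (adjusted p = 0.0728 in edgeR). With MA-10 replicate 1 left out it passed, at a log2FC of -0.35 (adjusted p = 0.0162). Scaling by library size alone, which moved the median of all genes by 0.43, gave Nr1h2 a log2FC of -0.01. The separation of the cell lines for Nr1h2 therefore depends on the scaling.

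**Figure D1:**
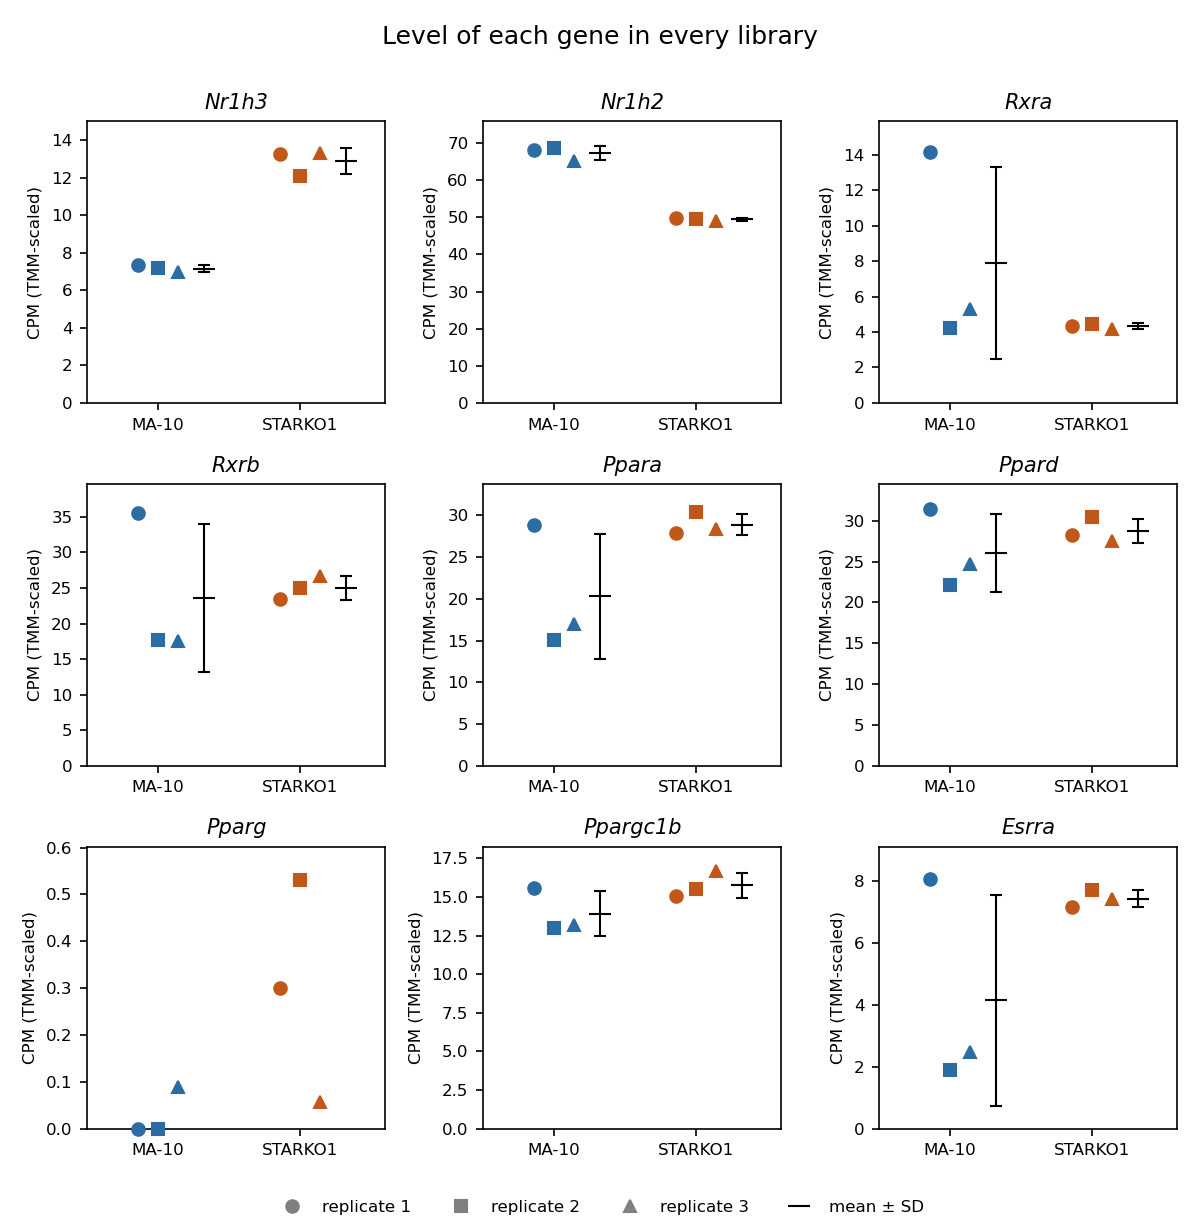
Level of each measured member in TMM-scaled CPM (vertical axes, each from 0) in the 3 MA-10 and 3 STARKO1 libraries, with a symbol for each replicate number and the mean ± SD beside them, left out for Pparg. Nr1h3 and Nr1h2 separate the cell lines with little spread, while MA-10 replicate 1 (circle) is far above MA-10 replicates 2 and 3 for Rxra, Rxrb, Ppara and Esrra.

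The ratio of a pair of genes within a library does not depend on how libraries are scaled, and 4 such ratios were computed after the values had been seen. How often other pairs of genes separate the cell lines was not computed. Of single genes tested, 42.5% did not overlap between the cell lines. The ratio of Nr1h3 to Nr1h2 counts was 0.108, 0.105 and 0.107 in MA-10 cells, and 0.266, 0.244 and 0.271 in STARKO1 cells. The cell lines were far apart on this ratio, and MA-10 replicate 1 was close to the other MA-10 libraries. The log2 difference was 1.29 ± 0.0482 (SE), a 2.45-fold higher ratio in STARKO1. An exact two-sided permutation test gave p = 0.1, the smallest that 3 libraries against 3 allow (0.133 after Benjamini-Hochberg adjustment over the 4 ratios). As a share of the counts of both genes, Nr1h3 took 9.72% in MA-10 replicate 1 (95% exact Clopper-Pearson interval 8.17 to 11.4). It took 9.47% (7.62 to 11.6) and 9.66% (7.72 to 11.9) in the other MA-10 libraries. The share in STARKO1 was 21.02% (18.96 to 23.2), 19.6% (17.3 to 22.2) and 21.4% (18.97 to 23.9). The intervals, which cover counting error only, overlap among the libraries of a cell line and not between the cell lines.

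Per kilobase of exon, where levels of different genes can be compared, the sum of the LXR pair was 22.9 ± 0.653 CPM per kb in MA-10 and 19.9 ± 0.283 in STARKO1 (SD, n = 3 each). Nr1h3 supplied 12.4% ± 0.159 of that sum in MA-10 cells and 25.8% ± 1.06 in STARKO1 cells.

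**Figure D2:**
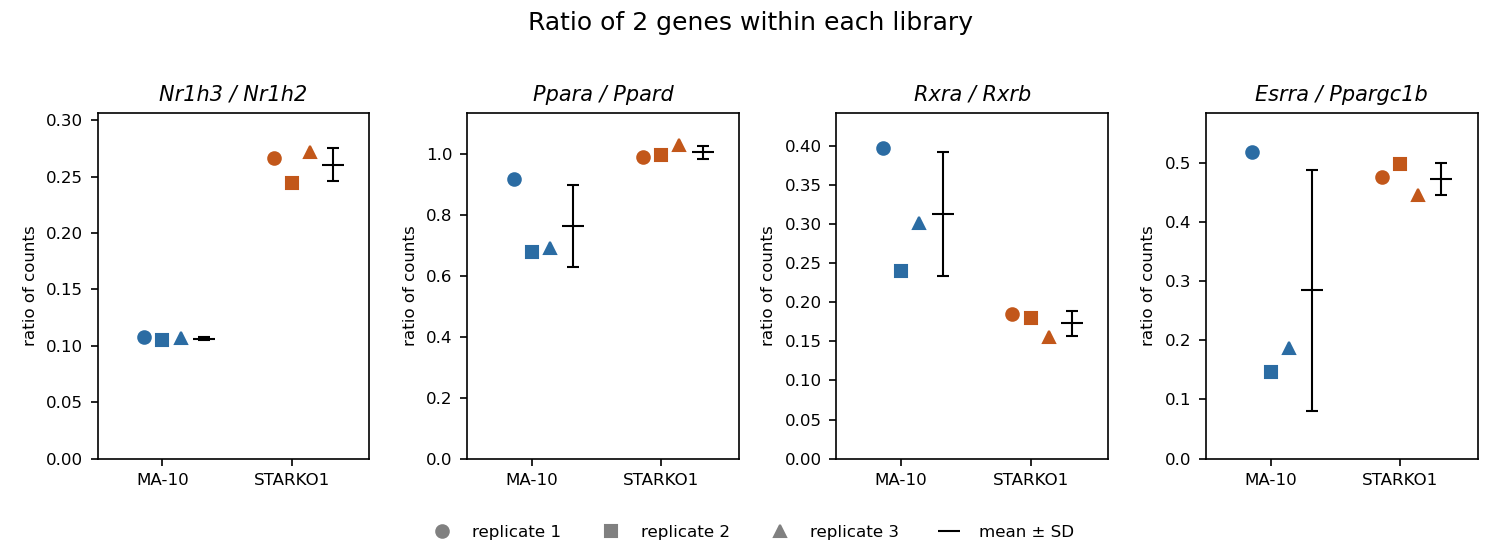
Ratio of the counts of 2 members within each library (vertical axes, each from 0) in MA-10 and STARKO1 cells, with a symbol for each replicate number and the mean ± SD. The Nr1h3 to Nr1h2 ratio lies between 0.105 and 0.108 in MA-10 and between 0.244 and 0.271 in STARKO1, and the Esrra to Ppargc1b ratio overlaps between the cell lines.

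The RXRs are the shared dimer partners of LXRs and PPARs. Rxra (chromosome 2, 27676440 to 27762958, plus strand) was at 14.1, 4.25 and 5.28 CPM in MA-10 cells against 4.34, 4.48 and 4.16 CPM in STARKO1 cells. MA-10 replicate 1 stood out, at 2.97 times the mean of the other MA-10 libraries, while MA-10 replicate 2 lay within the STARKO1 range and MA-10 replicate 3 above it. The log2FC of Rxra was -0.88 ± 0.455 (SE, adjusted p = 0.195) with all libraries and -0.05 without MA-10 replicate 1 (adjusted p = 0.832). Rxrb (chromosome 17, 34031812 to 34038400, plus strand) was at 35.6, 17.7 and 17.5 CPM in MA-10 cells against 23.4, 24.9 and 26.7 CPM in STARKO1 cells. MA-10 replicate 1 was above all STARKO1 libraries and the other MA-10 libraries were below them. The log2FC of Rxrb was 0.08 ± 0.3002 (SE, adjusted p = 0.857), 0.60 without MA-10 replicate 1 (adjusted p = 0.00300), and -0.09 without either of the other MA-10 libraries.

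The ratio of Rxra to Rxrb counts was higher in every MA-10 library than in any STARKO1 library. It was 0.398, 0.240 and 0.302 in MA-10 cells, and 0.186, 0.180 and 0.155 in STARKO1 cells, a log2 difference of -0.82 ± 0.225 (SE, exact permutation test, p = 0.1, the smallest possible). Per kilobase, Rxrb supplied most of the RXR sum in both cell lines, 81.6% ± 3.80 in MA-10 and 88.8% ± 0.922 in STARKO1 (SD, n = 3 each).

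Among the PPARs, Ppara encodes the receptor best known for driving fatty acid oxidation (chromosome 15, 85734983 to 85802820, plus strand). Ppara was at 28.8, 15.0 and 17.0 CPM in MA-10 cells against 27.9, 30.4 and 28.4 CPM in STARKO1 cells. MA-10 replicate 1 lay within the STARKO1 range and the other MA-10 libraries far below it. The log2FC was 0.51 ± 0.263 (SE, adjusted p = 0.197), and 0.94 without MA-10 replicate 1 (adjusted p = 0.000369).

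Ppard encodes PPARδ, which is expressed in most tissues (chromosome 17, 28232700 to 28301475, plus strand). Ppard was at 31.4, 22.1 and 24.7 CPM in MA-10 cells against 28.2, 30.5 and 27.6 CPM in STARKO1 cells, so the groups overlapped. Its log2FC was 0.14 ± 0.180 (SE, adjusted p = 0.581) and 0.39 without MA-10 replicate 1 (adjusted p = 0.0233). The ratio of Ppara to Ppard counts did not overlap, at 0.916, 0.678 and 0.689 in MA-10 cells and 0.989, 0.996 and 1.03 in STARKO1 cells. The log2 difference of this ratio was 0.41 ± 0.142 (SE, exact permutation test, p = 0.1, the smallest possible).

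Pparg encodes PPARγ, the regulator of fat cell differentiation (chromosome 6, 115360951 to 115490400, plus strand), and it was near the limit of detection. MA-10 cells had 0, 0 and 1 counts, and STARKO1 cells had 7, 9 and 1. Of the STARKO1 libraries, 2 of 3 were above a floor of 3 counts, and no MA-10 library was. The 17 STARKO1 counts against 1 MA-10 count, pooled over libraries and with the depths taken into account, gave an 11.8-fold ratio. Its 95% counting interval of 1.85 to 494 leaves out the spread between libraries, and STARKO1 replicate 3 had 1 count, as did MA-10 replicate 3. Pparg was too low for the test, and with no filter on low counts its adjusted p was 0.123 in edgeR.

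Ppargc1b encodes PGC-1β (chromosome 18, 61298136 to 61400432, minus strand). It was at 15.6, 13.01 and 13.2 CPM in MA-10 cells against 15.1, 15.5 and 16.7 CPM in STARKO1 cells. MA-10 replicate 1 lay within the STARKO1 range and the other MA-10 libraries below it. The log2FC of Ppargc1b was 0.18 ± 0.158 (SE, adjusted p = 0.429), and 0.35 without MA-10 replicate 1 (adjusted p = 0.0360).

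Esrra (chromosome 19, 6910977 to 6921814, minus strand) had 141, 22 and 28 counts in MA-10 cells, or 8.07, 1.91 and 2.47 CPM. In STARKO1 cells Esrra was at 7.18, 7.72 and 7.42 CPM. MA-10 replicate 1 was 3.69 times the mean of the other MA-10 libraries and above every STARKO1 library. The log2FC of Esrra was 0.81 ± 0.516 (SE, adjusted p = 0.276) with all libraries and 1.85 ± 0.204 (SE, adjusted p = 0.000125) without MA-10 replicate 1. At its 3′ end Esrra shares 73 of its 4387 exon bases with Trmt112, which is transcribed from the opposite strand. Trmt112 was at 43.2, 292 and 149 CPM in MA-10 cells and 38.4 to 44.9 CPM in STARKO1, so it was low in the libraries where Esrra was high. The library kit keeps strand, but the strand setting of the counting was not given in the sources used here, and the part of this overlap was not tested. The Esrra to Ppargc1b ratio was 0.518, 0.147 and 0.187 in MA-10 cells and 0.444 to 0.498 in STARKO1 (exact permutation test, p = 0.4).

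**Figure D3:**
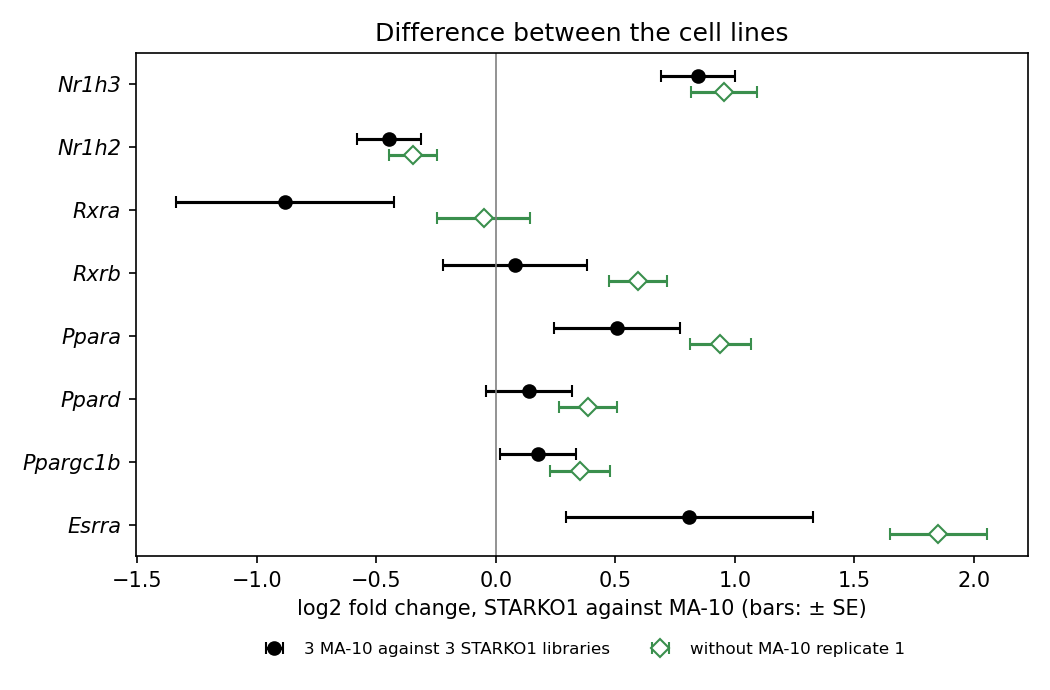
Log2 fold change of STARKO1 against MA-10 (horizontal axis, bars ± SE) for the 8 members tested, with all 6 libraries (filled circles) and without MA-10 replicate 1 (open diamonds). Nr1h3 moves from 0.85 to 0.95 between the fits, and Esrra moves from 0.81 to 1.85.

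With MA-10 replicate 1 left out, 7 of the 8 members passed the threshold, 6 higher and 1 lower in STARKO1, with Rxra the exception. In that fit 65.7% of all 12167 genes tested passed, 34% higher and 31.7% lower. Of the members that passed in that fit, only Nr1h3 also passed in another fit that left out a library. In MA-10 replicate 1, 4 of the 8 members (Rxra, Rxrb, Ppara and Esrra) were at least 1.5 times as high as in both other MA-10 libraries, against 19.4% of all genes tested.

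Per kilobase of exon, Nr1h2 was the most abundant member in both cell lines, with 20.1 ± 0.587 CPM per kb in MA-10 and 14.7 ± 0.108 in STARKO1 (SD, n = 3 each, as for the values that follow). In MA-10 it was followed by Rxrb (5.94 ± 2.61), Ppara (5.28 ± 1.94), Ppargc1b (3.49 ± 0.358), Ppard (3.47 ± 0.641), Nr1h3 (2.85 ± 0.0753), Rxra (1.45 ± 0.996) and Esrra (0.946 ± 0.777). From Rxrb on, the ranges of mean ± SD overlapped between neighbours except for Nr1h3 and Rxra. By library, Rxra was at 2.59, 0.778 and 0.967 and Esrra at 1.84, 0.435 and 0.562 CPM per kb in MA-10 cells, highest in replicate 1. In STARKO1 the order after Nr1h2 was Ppara (7.53 ± 0.338), Rxrb (6.30 ± 0.421), Nr1h3 (5.12 ± 0.275), Ppargc1b (3.95 ± 0.207), Ppard (3.83 ± 0.202), Esrra (1.70 ± 0.0615) and Rxra (0.792 ± 0.0296). There, the ranges overlapped only for Ppargc1b and Ppard. Nr1h3 stood in the sixth place in MA-10 and in the fourth in STARKO1, and Pparg in the last in both.

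The genes whose log2 CPM followed Nr1h3 most closely over the 6 libraries were Robo2 (Pearson's r = 0.999), Pnp (0.999) and Ube4a (0.998). Robo2 is an axon guidance receptor, Pnp a purine salvage enzyme and Ube4a a ubiquitin ligase. They had log2FC values of 2.66, 1.78 and 0.92, and 47 genes had an r above 0.99 with Nr1h3. These coefficients rest on 6 libraries that share the difference between the cell lines.

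The gene lists that follow were drawn up with earlier results of these data known, so their counts are a description only. Of all genes tested, 9.04% passed in edgeR, 37.6% had an unadjusted p under 0.05 in edgeR, and 28.5% passed in DESeq2. The LXR target genes held large estimates in both directions. Of 21 listed, 13 were in the table and 11 were tested, and 0 passed the threshold in edgeR. At an unadjusted p under 0.05 there were 3 (Abca1, Apoe and Apoc1), and DESeq2 called 3, with 0 to 1 under other scalings, filters and offsets. The median log2FC was 0.05, with 6 of 11 above 0. Apoe, which encodes a lipoprotein component, had the highest mean CPM over all 6 libraries. It was at 968, 6633 and 4433 CPM in MA-10 cells against 926, 1009 and 971 CPM in STARKO1 cells. Apoe in MA-10 replicate 1 lay within the STARKO1 range. The log2FC of Apoe was -2.05 ± 0.641 (SE, adjusted p = 0.0768), and -2.42 without MA-10 replicate 1 (adjusted p = 2.20e-05). Abca1, Srebf1 and Apoc1 were picked once their values had been seen. Abca1, the cholesterol efflux transporter, had a log2FC of 1.13 ± 0.311 (SE, adjusted p = 0.0626), and 1.64 without MA-10 replicate 1 (adjusted p = 2.14e-05). Srebf1, the regulator of fatty acid synthesis, was at 101, 28.7 and 35.6 CPM in MA-10 cells and 97.5 to 105 CPM in STARKO1. Its log2FC was 0.88 ± 0.463 (SE, adjusted p = 0.1995), and 1.75 without MA-10 replicate 1 (adjusted p = 3.30e-05). Apoc1, a neighbour of Apoe, had -2.24 (adjusted p = 0.0800), and -2.63 without MA-10 replicate 1 (adjusted p = 5.00e-05). Of the 6 fits that left out a library, only that without MA-10 replicate 1 called Apoe, Abca1, Srebf1 and Apoc1. Of 12 LXR targets tested without MA-10 replicate 1, 7 passed, 5 higher and 2 lower, against 65.7% of all genes tested.

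Of 40 PPAR target genes, 31 were in the table and 30 were tested. In edgeR 4 of them (13.3%) passed, 3 higher and 1 lower, against 9.04% of all genes tested. The median log2FC was 0.13. The count was 1 with library size scaling, 2 with upper quartile scaling, with no filter or a filter of 10 counts in every library and without the 50 most abundant genes, 4 with gene length offsets and 9 with DESeq2. Ucp2, an uncoupling protein family member of the inner mitochondrial membrane, fell from 28.5, 31.5 and 27.8 CPM in MA-10 to 5.51, 5.36 and 5.73 CPM in STARKO1. Its log2FC was -2.40 ± 0.155 (SE, adjusted p = 0.00121), and it passed in 6 of the 6 fits that left out a library. Cpt1a, the enzyme that commits long-chain fatty acids to mitochondrial oxidation, rose with a log2FC of 1.23 ± 0.296 (SE, adjusted p = 0.0494). Plin1, a lipid droplet coat protein, rose with 1.18 ± 0.282 (SE, adjusted p = 0.0489). Plin5, another perilipin and the remaining called gene, which the naming rule leaves out, rose with 1.12 ± 0.248 (SE, adjusted p = 0.0417). Without MA-10 replicate 1, Cpt1a, Plin1 and Plin5 were at 1.72, 1.64 and 1.45 (adjusted p = 2.81e-05, 5.05e-05 and 0.000155). Leaving out MA-10 replicate 2 or 3, or any 1 STARKO1 replicate, Cpt1a, Plin1 and Plin5 lost the call, with adjusted p up to 0.191, 0.198 and 0.185. Cpt1a and Plin1 also lost it with upper quartile scaling (0.0627 and 0.0619) and the other settings that gave a count of 2, and all 3 lost it with library size scaling. Fabp3, a fatty acid binding protein, had the highest mean CPM of the list over all libraries. It was at 476, 4658 and 2446 CPM in MA-10 cells and 771 to 825 CPM in STARKO1. Its log2FC was -1.67 (adjusted p = 0.137), and -2.07 without MA-10 replicate 1 (adjusted p = 0.000135). Fabp3 passed in no other fit that left out a library. Of 30 PPAR targets tested without MA-10 replicate 1, 18 passed, 14 higher and 4 lower, against 65.7% of all genes tested.

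Of 34 PGC-1 and ERR target genes, 31 were tested and 0 passed in edgeR, while 14 had an unadjusted p under 0.05, and DESeq2 called 12, with 0 to 1 under other scalings, filters and offsets. Over all genes tested these shares were 9.04%, 37.6% and 28.5%. The median log2FC of the list was -0.35, and 10 of 31 estimates were above 0. Cox5b, with the lowest estimate of the list (-2.36), was picked after its values were seen. It was at 238, 2155 and 1291 CPM in MA-10 cells and 233 to 250 CPM in STARKO1, so MA-10 replicate 1 lay within the STARKO1 range. Atp5b, a subunit of the mitochondrial ATP synthase, had the highest mean CPM of the list over all 6 libraries. It averaged 975 ± 138 CPM in MA-10 and 1245 ± 9.14 CPM in STARKO1 (SD, n = 3 each). Its log2FC, opposite in sign to the median, was 0.35 (adjusted p = 0.257 in edgeR), and 0.56 without MA-10 replicate 1 (adjusted p = 0.00329). Atp5b passed in no other fit that left out a library. With MA-10 replicate 1 left out, 24 of 31 passed, 9 higher and 15 lower, against 65.7% of all genes tested. The median of the list was then -0.24.

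**Figure D4:**
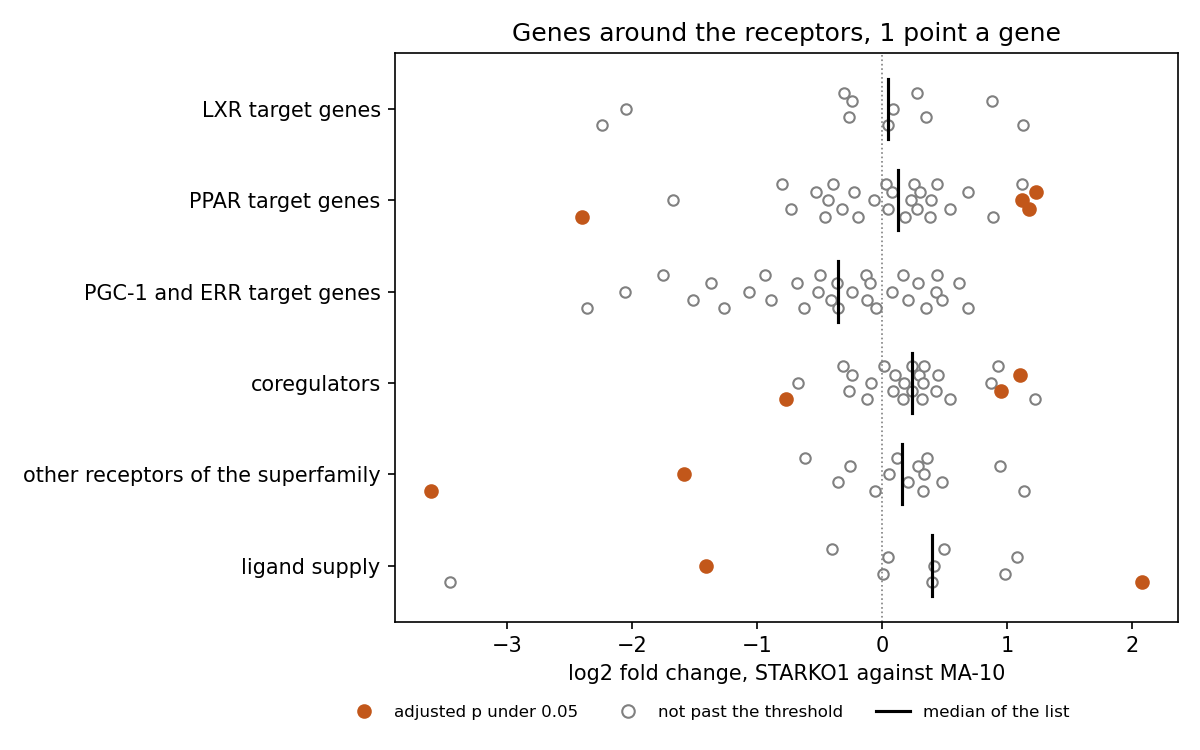
Log2 fold change of STARKO1 against MA-10 (horizontal axis) for the tested genes of 6 lists around the receptors, 1 point a gene, filled where the adjusted p was under 0.05, with a bar at the median of each list. The medians run from -0.35 for PGC-1 and ERR targets to 0.40 for ligand supply.

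Coregulators, which bind the receptors and set their activity or act on those that do, were tested for 26 of 27 listed genes, with a median log2FC of 0.24. In edgeR 3 of them (11.5%) passed, against 9.04% of all genes tested. The count ran from 1 with library size scaling to 6 with DESeq2, which called 28.5% of all genes. Mybbp1a, a nucleolar protein that represses PGC-1α, rose with a log2FC of 1.10 ± 0.201 (SE, adjusted p = 0.0258). Fbxw7, a ubiquitin ligase subunit, rose with 0.95 ± 0.182 (SE, adjusted p = 0.0292). Prkaa2, a catalytic subunit of the AMP-activated kinase, fell with -0.77 ± 0.162 (SE, adjusted p = 0.0372). Leaving out any 1 STARKO1 replicate, all 3 lost the call, with adjusted p up to 0.159, 0.155 and 0.187. Mybbp1a also lost it without MA-10 replicate 3 (0.0959), Fbxw7 without MA-10 replicate 2 (0.0648), and Prkaa2 without MA-10 replicate 3 (0.125) or 2 (0.0631). The call of Prkaa2 was also lost with upper quartile scaling (0.0665), with no filter (0.0504) and with library size scaling (log2FC -0.31, adjusted p = 0.381), and that of Mybbp1a with library size scaling (0.0728). Pprc1, a further PGC-1 family member, was singled out after its values were seen. It had a log2FC of 1.22 (adjusted p = 0.0623), and 1.69 without MA-10 replicate 1 (adjusted p = 0.000427). Pprc1 passed in no other fit that left out a library. With MA-10 replicate 1 left out, 16 of 26 coregulators passed, 14 higher and 2 lower, against 65.7% of all genes tested.

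Of 27 other receptors of the superfamily, 16 were in the table and were tested. In edgeR 2 of them (12.5%) passed, against 9.04% of all genes tested. Both act in the circadian clock. Rora fell with a log2FC of -3.61 ± 0.167 (SE, adjusted p = 0.00116) and Nr1d1 with -1.58 ± 0.168 (SE, adjusted p = 0.00513). Rora passed in 6 of the 6 fits that left out a library, and Nr1d1 lost the call without STARKO1 replicate 1 (0.0644) and without STARKO1 replicate 3 (0.0535), and with library size scaling (0.0970). The thyroid hormone receptor gene Thra, with the highest mean CPM of the list over all libraries, had a log2FC of -0.05 (adjusted p = 0.849), which turned positive with upper quartile or library size scaling and without MA-10 replicate 1. The median of the list was 0.16. With MA-10 replicate 1 left out 11 of 16 passed, 9 higher and 2 lower, against 65.7% of all genes tested.

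The list of ligand supply held 32 genes for oxysterols, fatty acid derivatives and retinoids, which include the RXR ligands. Of these, 17 were in the table and 11 were tested, with a median log2FC of 0.40. In edgeR 2 (18.2%) passed and in DESeq2 4, against 9.04% and 28.5% of all genes tested. The 2 genes that passed in edgeR both make retinoic acid from retinal. Aldh1a1 rose from 22.6, 16.8 and 18.7 CPM in MA-10 to 85.8, 78.8 and 81.6 CPM in STARKO1, a log2FC of 2.08 ± 0.172 (SE, adjusted p = 0.00228). Aldh1a2 fell from 6.99, 9.19 and 9.51 CPM to 3.01, 3.24 and 3.37 CPM, a log2FC of -1.41 ± 0.208 (SE, adjusted p = 0.0142). Aldh1a3 of the same list, picked after its values were seen, did not pass. It was at 0.687, 7.72 and 5.81 CPM in MA-10 cells and 0.337 to 0.589 CPM in STARKO1. Its log2FC was -3.46 ± 0.870 (SE, adjusted p = 0.0545), and -3.91 without MA-10 replicate 1 (adjusted p = 2.88e-05). Aldh1a1 passed in 6 of the 6 fits that left out a library. Aldh1a2 lost the call without MA-10 replicate 3 (0.0661) and without STARKO1 replicate 1, 2 or 3 (0.116, 0.0949 and 0.0945), and with library size scaling (0.0948). With MA-10 replicate 1 left out, 10 of 13 genes of this list passed, 8 higher and 2 lower, against 65.7% of all genes tested. In these bulk libraries, fewer cells that express a gene and less RNA per cell cannot be told apart.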

How the data were processed

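RNA of 3 MA-10 and 3 STARKO1 libraries was compared. The authors deposited estimated counts per gene, not scaled for library size and with replicates kept apart. The submitters' processing notes name STAR 2.6.1d, Partek and mm10 without giving their roles, the counting settings were not given in the sources used here, and values that were not whole occurred in 54.2% of genes. All columns were matched to a library by name. The deposited values were rounded to whole counts, filtered with filterByExpr, scaled by TMM and compared with the quasi-likelihood test of edgeR 4.0.16 in R 4.3.3, with an adjusted p under 0.05 over all genes as the threshold. Standard errors are the absolute log2 fold change divided by the square root of F. Exon lengths came from GENCODE M21 (GRCm38), matched for 14677 genes, and promoters from RefSeq. The scripts were tested on simulated counts with the same dispersion for every gene and no library set apart. That test therefore does not cover a library such as MA-10 replicate 1. Depth was 14114349 to 19530054 counts, and 3 counts were at most 0.264 CPM.

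The members were named without use of measured values, but both they and the gene lists were chosen with earlier results of these data known. The genes named are the members, Star, up to 3 called genes of each list by size of change, the most abundant gene of each list, and the 3 genes most like each called member; others are said to have been chosen later. Some genes that this rule names are not reported here. Alternatives were DESeq2 1.42.0, other scalings and filters, removal of the 50 most abundant genes, gene length offsets, a replicate block, leaving out each library, and MA-10 replicate 1 alone, which was added after the data were seen.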

Additional observations from a re-analysis of the deposited data

How the results depend on the processing

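The number of differentially expressed genes was 1079 with all libraries, 829 with upper quartile scaling, 330 with library size scaling, 695 with at least 10 counts in every library, and 3395 with DESeq2 1.42.0. Leaving out 1 library gave 89 to 7990 genes, the highest without MA-10 replicate 1 and the lowest without STARKO1 replicate 1. With upper quartile and library size scaling, 55.6% and 63.6% of the called genes were higher in STARKO1, against 47.5% with TMM, and the median of all genes moved by 0.14 and 0.43. The number of members called was 1, and became 0 with library size scaling, 2 with DESeq2 (Nr1h3 and Nr1h2), and 0 to 7 when 1 library was left out. The median log2 fold change of the members was 0.16, 0.56 with library size scaling, and 0.080 to 0.49 when 1 library was left out. Of the members, only Rxrb changed sign with another scaling, filter, tool, offset or block or without 1 library: it ran from -0.094 to 0.60 when 1 library was left out, below 0 without MA-10 replicate 2 or 3. In the added comparison of MA-10 replicate 1 alone with STARKO1, which has no test, Rxrb, Ppard and Esrra were at -0.51, -0.13 and -0.12. Thra changed sign to 0.078 with upper quartile scaling and 0.33 with library size scaling, and ran from -0.20 to 0.18 when 1 library was left out. Nr1h3 had an adjusted p of 0.0687 with library size scaling.

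Between same-numbered libraries, departures from the group average were almost uncorrelated (r = -0.02, 0.05 and 0.02). The STARKO1 libraries were close to each other (Pearson's r of 0.993 to 0.994), so their departures were small. This check therefore cannot decide whether the numbers mark pairs of libraries. With the replicate block, 234 genes and 0 members were called, and 240 genes and 0 members with gene length offsets and the replicate block (adjusted p of Nr1h3 0.1002 and 0.0799). Cpt1a, Plin1, Plin5, Mybbp1a, Fbxw7, Prkaa2 and Aldh1a2 lost the call in both fits, and Ucp2, Rora, Nr1d1 and Aldh1a1 passed in both. The causes were not tested. The lowest counts of a tested member were 22 and 28 (Esrra in MA-10 replicates 2 and 3), and Pparg was too low to be tested.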
